A study of Mus musculus with 6 samples.

Results

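Endothelial identity genes are transcripts by which the inner lining of blood vessels is recognised. The list holds 10 genes, Pecam1, Cdh5, Kdr, Tek, Vwf, Nos3, Sox17, Plvap, Emcn and Robo4, of 19938 genes with a probe set of a single gene symbol on the array. They were chosen by name, each had 1 such probe set, and all 10 entered the test. The tissue was labelled aorta from mice 6 weeks old, with 3 arrays of Trail knockout mice and 3 of wild-type mice, and the strain of both groups was given as C57Bl6/J. The design text names Amgen as the origin of the knockout mice, and nothing in the labels describes the allele or says whether animals were pooled. The gene Tnfsf10 encodes Trail, a cytokine related to tumour necrosis factor that can trigger cell death. RNA was hybridised to single-channel Affymetrix arrays, and each value below is a log2 signal, so that a step of 1 is a 2-fold step.

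The endothelium is a single layer of cells that separates blood from the vessel wall. It senses flow and growth factors through surface receptors, holds its barrier through cadherin junctions, and relaxes the smooth muscle beneath it with nitric oxide. In the aorta it is a thin layer on a thick muscular wall, and the small vessels of surrounding fat and muscle carry endothelium of their own. Plvap marks fenestrated and other leaky microvessels, whereas Sox17 is known for its role in arterial endothelium.

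The array labelled wild type 1 stood apart from the other 5. Its Pearson r with them over 23410 annotated probe sets was 0.899 to 0.907, against 0.974 to 0.996 among the other 5 (a description across probe sets, not across replicates). The deleted gene, Tnfsf10, gave 5.02, 4.48 and 4.09 on the arrays labelled knockout 1, 2 and 3, and 8.42, 4.90 and 4.85 on those labelled wild type 1, 2 and 3. Wild type 2 and 3 were thus not set apart from the knockout arrays by this gene, and directions below follow the labels. Brown fat markers averaged 6.37 to 6.66 on the knockout arrays, and 10.78, 6.51 and 6.54 on wild type 1, 2 and 3. Skeletal muscle markers averaged 11.04 to 11.61 on the knockout arrays, and 6.65, 11.33 and 11.59 on wild type 1, 2 and 3. Lung epithelium markers averaged 9.68 on knockout 1 and at most 5.72 elsewhere, and stomach epithelium markers 12.71 on knockout 2, 8.17 on wild type 3 and at most 5.53 elsewhere. Differences between the genotypes are therefore given with and without wild type 1.

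Signals of the endothelial identity genes were first set against those of all annotated probe sets. The signal of 9 of the 10 genes was above 5.86, the value that parts the lowest 40% of annotated probe sets from the rest, on each of the 6 arrays. Sox17 was the exception, with 4 arrays between 5.59 and 5.74. The value of 5.86 is no limit of detection. Nos3 was at 6.16 to 6.30 on knockout 2, knockout 3, wild type 2 and wild type 3, below the lowest array median of 6.34. Robo4 was below it too on knockout 2, knockout 3 and wild type 3, at 6.23 to 6.27. Values of further endothelial markers are given beside them. Cldn5, a tight junction protein of endothelium, lay between 6.75 and 8.02 on the knockout arrays and between 7.00 and 8.58 on the wild-type arrays. Erg, an ETS-family transcription factor of endothelium, lay between 6.54 and 6.89 on the knockout arrays and between 6.51 and 8.17 on the wild-type arrays.

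Many endothelial genes carry binding sites for ETS-family factors in front of their start, so the promoters at hand are shown to let the members' sequences be set beside their signals. RefSeq windows on GRCm38.p6 were at hand for 4 of the 10 genes. Each line gives 250 bases before the start of the gene, 5′ to 3′ on the strand of the gene, with matches to the ETS-type letters AGGAA, or TTCCT on the other strand, in capitals.
Kdr: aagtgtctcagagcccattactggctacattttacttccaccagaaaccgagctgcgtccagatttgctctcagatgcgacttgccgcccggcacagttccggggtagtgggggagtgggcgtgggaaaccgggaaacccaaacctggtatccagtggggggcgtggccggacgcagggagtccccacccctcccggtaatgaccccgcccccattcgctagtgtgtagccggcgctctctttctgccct
Tek: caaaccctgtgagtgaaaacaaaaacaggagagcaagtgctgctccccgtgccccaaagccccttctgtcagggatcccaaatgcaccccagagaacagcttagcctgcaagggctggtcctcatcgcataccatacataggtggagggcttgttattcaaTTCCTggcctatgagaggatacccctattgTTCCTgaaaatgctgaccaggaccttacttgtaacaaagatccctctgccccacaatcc
Robo4: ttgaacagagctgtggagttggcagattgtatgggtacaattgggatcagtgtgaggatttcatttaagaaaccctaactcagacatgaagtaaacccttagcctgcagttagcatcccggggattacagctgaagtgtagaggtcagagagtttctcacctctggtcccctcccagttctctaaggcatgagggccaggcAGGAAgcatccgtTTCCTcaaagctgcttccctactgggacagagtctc
Emcn: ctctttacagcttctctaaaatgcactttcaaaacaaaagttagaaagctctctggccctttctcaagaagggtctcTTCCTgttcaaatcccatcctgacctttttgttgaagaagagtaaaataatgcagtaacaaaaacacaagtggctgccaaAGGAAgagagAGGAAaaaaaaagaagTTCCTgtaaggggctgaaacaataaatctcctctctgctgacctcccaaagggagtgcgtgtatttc

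The Emcn window, at chr3:137340828-137341077 on the plus strand, held 4 matches to AGGAA. The windows of Tek (chr4:94739039-94739288, plus strand) and Robo4 (chr9:37401722-37401971, plus strand) held 2 each, and that of Kdr (chr5:75978456-75978705, minus strand) held 0. At least 1 match was present in 60.3% of all 32851 such windows, and 3 or more in 9.02%. For the SOX-type letters ACAAT, or ATTGT on the other strand, the counts were 2 in Tek, 2 in Robo4, 1 in Emcn and 0 in Kdr, and 27.7% of all windows held at least 1. These matches describe letters only. Other spellings of an ETS-type core, such as the ttccgg in the Kdr window, were not counted, so 0 matches to AGGAA does not mean 0 ETS-type sites. Kdr, with 0 matches to these letters, and Emcn, with 4 to AGGAA, were both more than 2-fold above every other array on wild type 1, as shown next. Tek and Robo4, with 2 matches to AGGAA each, were not, with log2 steps of 0.23 and 0.98 over the next array. A link between such sites and the signals was not tested.

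No endothelial identity gene passed the test between the genotypes. In limma, 0 of 10 had an adjusted p under 0.05 on 6 arrays, as did 0 of 14046 probe sets tested (0%), and the same held on the 5 arrays without wild type 1 (0 of 10, and 0% of all). At an unadjusted p under 0.05 the count was 0 of 10 on 6 arrays, where 0.634% of all probe sets qualified, and 0 of 10 on 5 arrays, where 1.54% did. The signs of the differences turned with 1 array. On 6 arrays, 9 of 10 genes had a knockout mean below the wild-type mean (56.5% of all probe sets) and 1 of 10, Plvap, had a higher one (43.5% of all), with a median difference, knockout minus wild type, of -0.32 against -0.03 over all probe sets. Without wild type 1, 9 of 10 had a knockout mean above it (41.6% of all) and 1 of 10, Tek, a lower one (58.4% of all), with a median difference of 0.12 against -0.03 over all. The groups overlapped for all 10 genes on 6 arrays, where those of 4.29% of all probe sets were parted with the knockout lower and those of 1.31% with the knockout higher. On 5 arrays the groups of 1 gene of 10, Kdr, were parted with the knockout higher (4.13% of all probe sets) and those of 0 genes with the knockout lower (8.45% of all). In tissue RNA, fewer endothelial cells and less RNA per endothelial cell cannot be told apart.

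**Figure D1:**
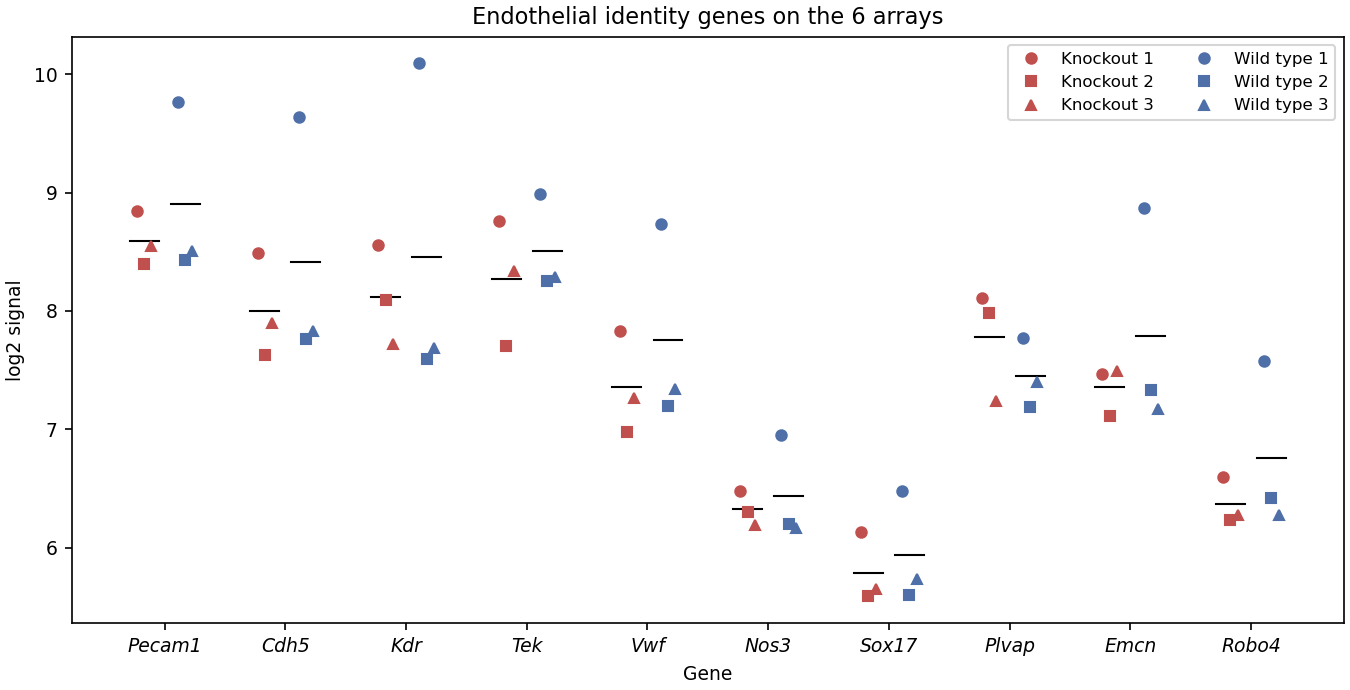
The log2 signal of each endothelial identity gene on every array, with knockout arrays in red to the left and wild-type arrays in blue to the right, a symbol for each replicate number, and a bar for each group mean (n = 3). Wild type 1 is the highest array for 9 of 10 genes, and knockout 1 is highest for Plvap.

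The first receptor, Kdr, is VEGF receptor 2, the main receptor through which VEGF drives endothelial growth. It gave 8.55, 8.09 and 7.72 on knockout 1, 2 and 3, and 10.09, 7.59 and 7.69 on wild type 1, 2 and 3. Every knockout array lay above wild type 2 and 3 and below wild type 1, so the groups overlapped on 6 arrays and did not overlap on 5. The difference was -0.34 on 6 arrays (SE 0.72, 95% interval -2.10 to 1.43, limma adjusted p = 0.933). Without wild type 1 it was 0.48 (SE 0.24, 95% interval -0.08 to 1.04, limma adjusted p = 0.997).

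Tek encodes TIE2, the receptor of the angiopoietins, which keeps vessels quiescent. Tek had 8.76, 7.70 and 8.34 on knockout 1, 2 and 3, and 8.99, 8.25 and 8.29 on wild type 1, 2 and 3. Its spread lay within both groups, with an SD of 0.53 among the knockout arrays and 0.42 among the wild-type arrays (n = 3 each). Knockout 1 was close to wild type 1, the highest array, and knockout 2 was lowest of all. The Tek difference was -0.24 on 6 arrays (SE 0.34, 95% interval -1.08 to 0.60, limma adjusted p = 0.921). On 5 arrays the Tek difference was -0.00056 (SE 0.29, 95% interval -0.68 to 0.68, limma adjusted p = 0.9998).

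Robo4 is a roundabout-family receptor of endothelium that stabilises the vascular barrier. The Robo4 signal was 6.60, 6.23 and 6.27 on knockout 1, 2 and 3, and 7.58, 6.41 and 6.27 on wild type 1, 2 and 3. Apart from wild type 1, all arrays lay within 0.37 of each other and the groups overlapped. Robo4 differed by -0.39 on 6 arrays (SE 0.37, 95% interval -1.29 to 0.51, limma adjusted p = 0.921) and by 0.02 on 5 (SE 0.15, 95% interval -0.34 to 0.39, limma adjusted p = 0.997).

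Among the junction and surface proteins, Pecam1 (CD31) joins neighbouring endothelial cells and is also carried by platelets and leukocytes. Pecam1 gave 8.84, 8.39 and 8.55 on knockout 1, 2 and 3, and 9.76, 8.43 and 8.51 on wild type 1, 2 and 3. The groups overlapped, and the array farthest from the rest was again wild type 1. The Pecam1 difference was -0.31 on 6 arrays (SE 0.39, 95% interval -1.27 to 0.65, limma adjusted p = 0.921) and 0.12 on 5 (SE 0.16, 95% interval -0.25 to 0.49, limma adjusted p = 0.997).

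Cdh5 is VE-cadherin, the adhesive core of the endothelial junction. Signals of Cdh5 were 8.49, 7.63 and 7.89 on knockout 1, 2 and 3, and 9.64, 7.76 and 7.83 on wild type 1, 2 and 3. Leaving wild type 1 aside, knockout 1 stood 0.71 above the mean of the remaining 4 arrays, which lay between 7.63 and 7.89. Cdh5 differed by -0.41 on 6 arrays (SE 0.56, 95% interval -1.79 to 0.98, limma adjusted p = 0.921) and by 0.21 on 5 (SE 0.24, 95% interval -0.38 to 0.79, limma adjusted p = 0.997).

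Emcn encodes endomucin, a sialomucin of capillary and venous endothelium. Its signal reached 7.47, 7.11 and 7.49 on knockout 1, 2 and 3, and 8.87, 7.33 and 7.17 on wild type 1, 2 and 3. Emcn was the 1 gene of the list whose highest value among the 5 arrays was on knockout 3 and not on knockout 1. The Emcn difference was -0.43 on 6 arrays (SE 0.47, 95% interval -1.59 to 0.73, limma adjusted p = 0.921) and 0.11 on 5 (SE 0.15, 95% interval -0.26 to 0.47, limma adjusted p = 0.997).

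Plvap forms the diaphragms of fenestrae and caveolae. Plvap had 8.11, 7.98 and 7.24 on knockout 1, 2 and 3, and 7.77, 7.19 and 7.40 on wild type 1, 2 and 3. It was the exception of the list, since knockout 1 and 2 exceeded wild type 1, while knockout 3 lay below wild type 3. Plvap averaged 7.78 ± 0.47 in the knockout group and 7.45 ± 0.30 in the wild-type group (SD, n = 3 each). The difference was 0.33 on 6 arrays (SE 0.28, 95% interval -0.37 to 1.02, limma adjusted p = 0.921) and 0.49 on 5 (SE 0.26, 95% interval -0.14 to 1.11, limma adjusted p = 0.997).

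Of the secreted protein and the enzyme, Vwf is von Willebrand factor, stored in Weibel-Palade bodies and released to capture platelets. Vwf gave 7.83, 6.98 and 7.26 on knockout 1, 2 and 3, and 8.73, 7.19 and 7.34 on wild type 1, 2 and 3. Knockout 1 was next to wild type 1 in height and the groups overlapped. The Vwf difference was -0.40 on 6 arrays (SE 0.47, 95% interval -1.55 to 0.75, limma adjusted p = 0.921) and 0.09 on 5 (SE 0.24, 95% interval -0.49 to 0.67, limma adjusted p = 0.997). Megakaryocytes make Vwf too, and platelet markers, of which 5 of 6 were on the array, averaged 6.78, 6.01 and 6.12 on knockout 1, 2 and 3, and 6.88, 6.44 and 6.86 on wild type 1, 2 and 3. Of these, Ppbp varied most, with 7.38, 5.36 and 5.55 on knockout 1, 2 and 3, and 8.21, 6.48 and 7.82 on wild type 1, 2 and 3. Wild type 1 was the highest array for 3 of the 5 markers, but not for Pf4 or Itga2b. The part of platelets in the Vwf signal was not tested.

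Nos3 is the endothelial nitric oxide synthase. Nos3 signals were 6.48, 6.30 and 6.19 on knockout 1, 2 and 3, and 6.95, 6.20 and 6.16 on wild type 1, 2 and 3. The 5 arrays other than wild type 1 lay within 0.32 of each other, the narrowest spread of the 10 genes. All of these but knockout 1 lay below the lowest array median, 6.34, so the narrow spread was seen at low signals. Nos3 differed by -0.11 on 6 arrays (SE 0.24, 95% interval -0.70 to 0.48, limma adjusted p = 0.933) and by 0.14 on 5 (SE 0.13, 95% interval -0.18 to 0.46, limma adjusted p = 0.997).

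The transcription factor Sox17 passed the filter on low signals narrowly, with a mean over the 6 arrays of 5.8627 against 5.8552. Sox17 gave 6.13, 5.59 and 5.65 on knockout 1, 2 and 3, and 6.48, 5.59 and 5.74 on wild type 1, 2 and 3. Wild type 1 was highest and knockout 1 next, and the groups overlapped. The Sox17 difference was -0.15 on 6 arrays (SE 0.28, 95% interval -0.85 to 0.55, limma adjusted p = 0.926) and 0.12 on 5 (SE 0.20, 95% interval -0.35 to 0.59, limma adjusted p = 0.997).

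**Figure D2:**
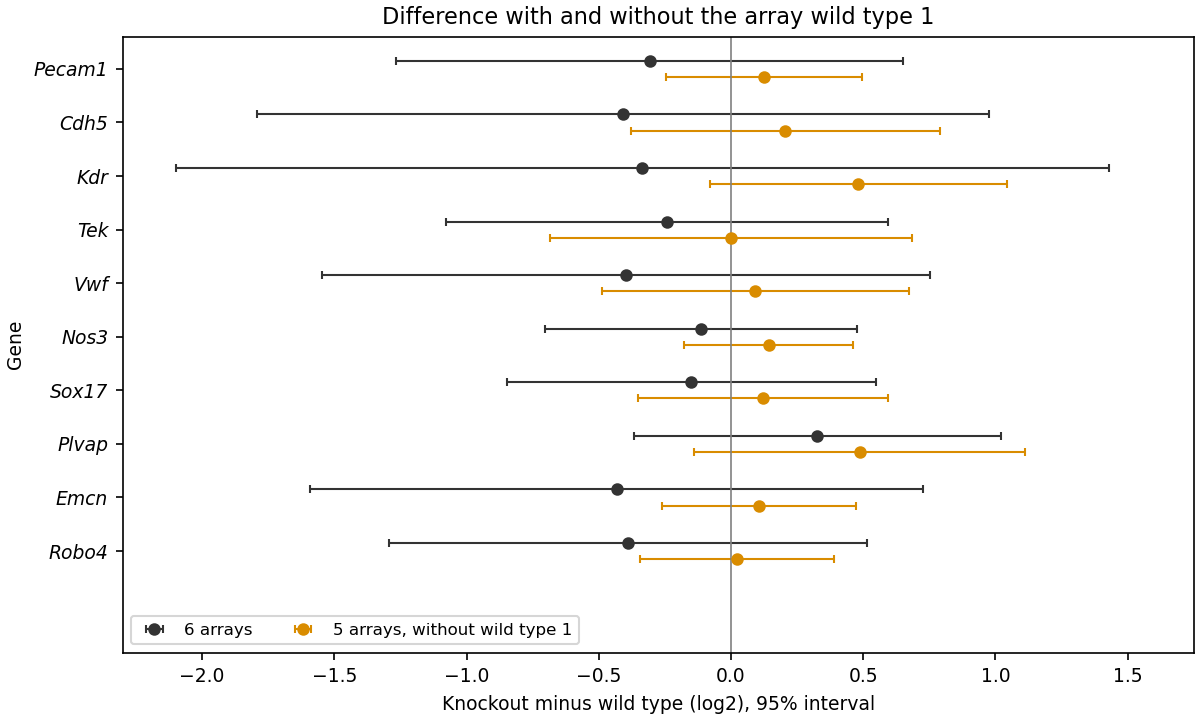
Fitted log2 differences of the 10 genes, knockout minus wild type, with 95% intervals from limma on 6 arrays (black) and on 5 arrays without wild type 1 (orange). All 20 intervals include 0, and the intervals are narrower without wild type 1 for each of the 10 genes.

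The height of wild type 1 was then described gene by gene, as a single array that allows no test. It was the highest array for 9 of 10 genes, against 37.9% of all probe sets tested. Kdr, Emcn and Cdh5 were more than 2-fold above every other array there (3 of 10, against 6.27% of all). Over the mean of the other 5 arrays the step was 2.16 for Kdr (4.48-fold), 1.72 for Cdh5 (3.29-fold), 1.55 for Emcn (2.94-fold), and 1.41 for Vwf (2.66-fold). Robo4 and Pecam1 followed, each with 1.22 (2.33-fold). The step was smaller for Sox17 with 0.74 (1.67-fold), Tek with 0.72 (1.65-fold) and Nos3 with 0.68 (1.60-fold). Plvap, with 0.19 (1.14-fold), lay inside the range of the other arrays. For 7 of the 10 genes the gap between wild type 1 and the next array exceeded the whole range of the other 5. The share of all probe sets with such a gap was not counted, so this is not shown to be particular to these genes. The step thus differed in size between the genes. The fat and muscle signals of wild type 1 are given above. Squamous epithelium markers also set it apart, with a mean of 5.11 there against 10.85 to 11.00 on the other 5. The part of these tissue signals in the height of the endothelial genes was not tested.

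On the 5 remaining arrays, knockout 1 was the highest for 9 of 10 genes, against 21.3% of all probe sets tested. It lay farthest from the mean of the 5 for 8 of 10 genes, whereas knockout 2 lay farthest for Tek and Emcn, below the mean in both. The share of all probe sets farthest on knockout 1 was not counted. Over the mean of knockout 2, knockout 3, wild type 2 and wild type 3, knockout 1 stood 0.78 higher for Kdr, 0.71 for Cdh5, 0.66 for Plvap, 0.64 for Vwf and 0.62 for Tek. The step was 0.48 for Sox17, 0.37 for Pecam1, 0.30 for Robo4, 0.26 for Nos3 and 0.19 for Emcn. Emcn therefore had the third highest step on wild type 1 and the smallest on knockout 1, whereas Plvap had the smallest on wild type 1 and the third highest on knockout 1. All 4 lung epithelium markers were highest on knockout 1, and lung is rich in small vessels. Their part in these values was not tested. Leaving out knockout 1 as well brought the median difference of the 10 genes to -0.02, against -0.03 over all probe sets. Of the 10, 4 were then higher and 6 lower in the knockout, near the shares of all probe sets (40.2% and 59.8%).

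**Figure D3:**
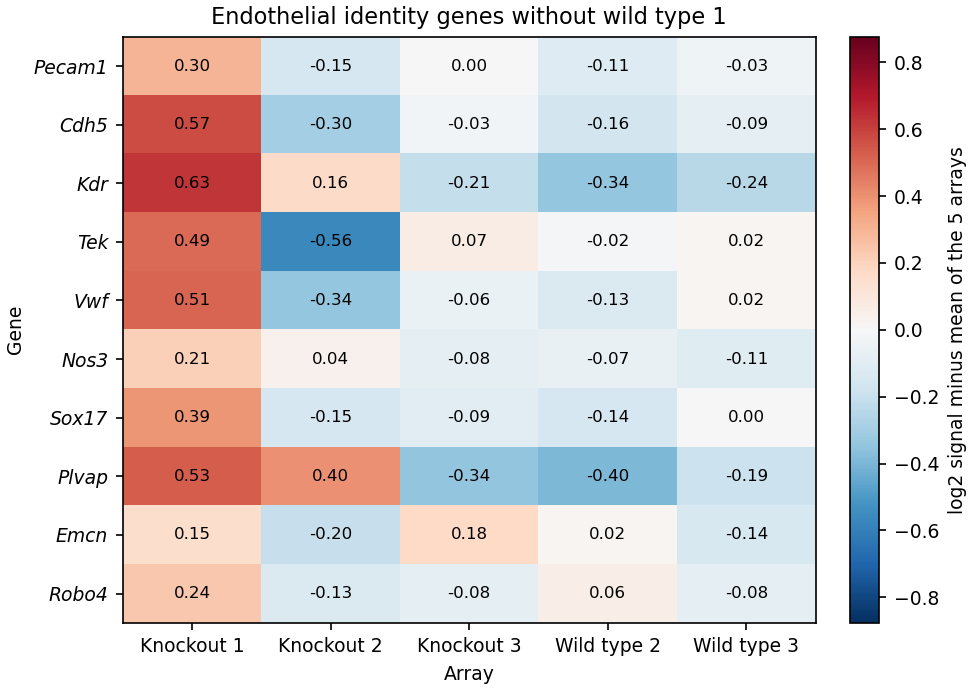
The log2 signal of each gene minus its mean over the 5 arrays other than wild type 1, with knockout arrays to the left and wild-type arrays to the right and the value printed in each cell. Knockout 1 is above the mean for all 10 genes, and knockout 2 is above it for Kdr, Nos3 and Plvap alone.

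Knockout 2 had the lowest value of all 6 arrays for 7 of 10 genes. The share of all probe sets lowest there was not counted, so this is not shown to be particular to these genes. Means of the skeletal muscle, macrophage, platelet and lymphatic lists, among others, were also lowest of the 5 arrays on knockout 2. Those of smooth muscle and stomach markers were highest there. Against the mean of the 5 arrays, the lowest place of knockout 2 was that of Tek, by -0.56, followed by Vwf with -0.34 and Cdh5 with -0.30. Plvap and Kdr went the other way, with 0.40 and 0.16. This array carried the stomach markers, and its macrophage markers averaged 7.41 against 7.76 to 8.19 on the other 5. Without wild type 1 and knockout 2, all 10 genes were higher in the knockout (43.8% of all probe sets). Their median difference was 0.26 against -0.02 over all, and none passed the test (limma adjusted p = 0.99997 or higher for each). With knockout 3 alone against wild type 2 and 3, the median difference was 0.04, with 6 genes higher and 4 lower (48.2% and 51.8% of all probe sets).

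Kdr and Plvap, the genes with the largest differences on 5 arrays, were high on knockout 1 and 2 and low on knockout 3, wild type 2 and wild type 3. White fat markers averaged 8.06, 7.64 and 6.74 on knockout 1, 2 and 3, and 10.49, 6.28 and 6.78 on wild type 1, 2 and 3. Plvap and the mean of the white fat markers put the 5 arrays in the same order, from knockout 1 and knockout 2 through wild type 3 and knockout 3 to wild type 2. In that mean, wild type 3 and knockout 3 were close, at 6.78 and 6.74. Of the single markers, Adipoq and Plin1 kept this order, and Lep, Cidec, Retn and Fabp4 did not. On wild type 1 Plvap and the white fat markers parted, because the white fat markers were highest there and Plvap was not. The part of fat tissue in the Plvap and Kdr signals was not tested.

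Other genes of the endothelium were described from 9 lists, with 139 genes on the array and 123 of them bright enough to be tested. In limma 0 of these passed at an adjusted p under 0.05 on 6 arrays or on 5, as did 0% of all probe sets in both. At an unadjusted p under 0.05 the count was 0 of 123 on 6 arrays (0.634% of all) and 2 of 123 on 5 arrays, a share near the 1.54% of all. The 2 on 5 arrays, named after their values were seen, were Vegfa, the main endothelial growth factor, and Fabp4, a fatty acid carrier of capillary endothelium and adipocytes. Both turned in sign with wild type 1. Vegfa differed by -0.19 on 6 arrays (SE 0.54) and by 0.43 on 5 (SE 0.17), and Fabp4 by -0.50 on 6 (SE 1.15) and by 0.83 on 5 (SE 0.30), with a limma adjusted p of 0.997 for both on 5. On 6 arrays 92 of 139 were lower in the knockout (56.5% of all probe sets), with a median difference of -0.13. Without wild type 1, 84 of 139 were higher (41.6% of all), with a median of 0.05. Wild type 1 was the highest array for 81 of the 139, against 37.9% of all probe sets tested. These shares are over probe sets above the filter on low signals, whereas the 139 include genes too dim to be tested. Without that filter, 49.4% of all annotated probe sets were lower in the knockout on 6 arrays. The shares above the filter are also those to set beside the counts of the single lists below.

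Receptors and ligands of vascular growth were counted first. On 6 arrays 17 of 21 were lower in the knockout (median -0.19), and on 5 arrays 17 of 21 were higher (median 0.15). Angpt1, the ligand that activates TIE2, gave 6.39, 5.55 and 6.47 on knockout 1, 2 and 3, and 7.37, 6.77 and 6.39 on wild type 1, 2 and 3. The Angpt1 difference was -0.71 (SE 0.35, limma adjusted p = 0.921) on 6 arrays and -0.44 (SE 0.30, limma adjusted p = 0.997) on 5, with the same sign in both. Slit2, a ligand of roundabout receptors, was too dim to be tested and differed by 0.27 on 6 arrays and on 5 (SE 0.15 and 0.18).

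Junction and surface genes were lower for 15 of 21 on 6 arrays (median -0.16) and higher for 15 of 21 on 5 (median 0.04). For Jup, plakoglobin, a junction protein shared by endothelium and epithelium, the difference was 0.70 on 6 arrays (SE 0.59) and 0.0026 on 5 (SE 0.12), with 8.23 on wild type 1 against 10.18 to 10.45 on the other 5. Squamous epithelium markers averaged 10.85 to 10.98 on the knockout arrays, and 5.11, 11.00 and 10.92 on wild type 1, 2 and 3. Cd151 and Ecscr had the lowest p of their list on 6 arrays. Cd151 had a difference of -0.33 on 6 arrays (SE 0.17) and of -0.23 on 5 (SE 0.16), and Ecscr had -0.25 on 6 (SE 0.20) and -0.06 on 5 (SE 0.13).

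Endothelial transcription factors were lower for 16 of 22 on 6 arrays (median -0.18) and were split evenly, 11 and 11, on 5 (median 0.05). The flow-responsive factor Klf2 gave 7.56, 7.20 and 7.35 on knockout 1, 2 and 3, and 7.88, 7.52 and 7.71 on wild type 1, 2 and 3. The Klf2 difference was -0.34 on 6 arrays (SE 0.15, limma adjusted p = 0.921) and -0.25 on 5 (SE 0.14, limma adjusted p = 0.997), and the groups overlapped, since knockout 1 exceeded wild type 2. The ETS factor Fli1 and the forkhead factor Foxc1 differed by -0.56 (SE 0.35) and -0.62 (SE 0.53) on 6 arrays, and by -0.18 and -0.0090 on 5.

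Genes of the nitric oxide pathway around Nos3 were lower for 10 of 17 on 6 arrays (median -0.03) and for 9 of 17 on 5 (median -0.02). Arg1, an arginase that uses the same substrate as nitric oxide synthase, had a difference of 1.27 on 6 arrays (SE 1.07) and of 0.03 on 5 (SE 0.33), with 4.89 on wild type 1 against 8.01 to 9.25 elsewhere. Prkg1, the kinase that acts after nitric oxide in smooth muscle, had a difference of 0.18 on 6 arrays (SE 0.11) and of 0.14 on 5 (SE 0.11). Nos2, the inducible synthase, was too dim to be tested and had a difference of -0.37 on 6 arrays (SE 0.22) and of -0.13 on 5 (SE 0.13).

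Vessel-type lists were then set side by side on wild type 1. The median step of that array over the mean of the other 5 was 1.91 for capillary and fenestrated endothelium, 0.73 for arterial and Notch genes, 0.72 for venous genes and -0.14 for lymphatic genes, against 1.22 for the identity genes. Capillary genes were more than 2-fold above every other array for 12 of 18, against 6.27% of all probe sets tested. Among them Aqp7, a glycerol channel of fat and capillaries, gave 7.02, 6.58 and 6.92 on knockout 1, 2 and 3, and 10.66, 6.69 and 6.66 on wild type 1, 2 and 3. Several genes of that list, such as Aqp7, Fabp4, Lpl and Cd36, are made by adipocytes too. The homeobox gene Meox2 stood at -0.72 on 6 arrays (SE 0.36) and at -0.36 on 5 (SE 0.21), while Esm1, too dim to be tested, differed by 0.39 (SE 0.24) and 0.44.

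In the other vessel-type lists, the venous factor Nr2f2 gave 8.46, 8.76 and 8.19 on knockout 1, 2 and 3, and 8.22, 8.16 and 8.13 on wild type 1, 2 and 3, a difference of 0.30 (SE 0.17) on 6 arrays and of 0.33 (SE 0.18) on 5. Vcam1 and Lrg1 of the venous list differed by -0.33 (SE 0.26) and -0.89 (SE 0.83) on 6 arrays, and by -0.06 and 0.08 on 5. Jag2, a Notch ligand, had a difference of 0.21 on 6 arrays (SE 0.15) and of 0.09 on 5 (SE 0.13). The matrix genes Mgp and Fbln5 of the arterial list differed by -0.41 (SE 0.29) and -0.64 (SE 0.54) on 6 arrays, and by -0.09 (SE 0.13) and -0.07 (SE 0.27) on 5. All 3 genes were thus closer to 0 without wild type 1. Lymphatic genes were split 5 higher and 3 lower on 6 arrays (median 0.05) and 4 and 4 on 5 (median -0.04). Thy1 had a difference of -0.41 on 6 arrays (SE 0.20) and of -0.21 on 5 (SE 0.12), and Pdpn had 0.29 on 6 (SE 0.28) and 0.06 on 5 (SE 0.21). Of genes tied to Weibel-Palade bodies and endothelial activation, 9 of 15 were higher on 6 arrays and 10 of 15 on 5. Rab27a had a difference of 0.78 on 6 arrays (SE 0.36) and of 0.56 on 5 (SE 0.33), and Cd63 had 0.50 on 6 (SE 0.29) and 0.26 on 5 (SE 0.21). Rab27a was highest on knockout 2, with 8.92 against 7.01 to 8.04 on the other 5. Each gene in this paragraph had a limma adjusted p of 0.921 on 6 arrays and of 0.997 on 5.

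**Figure D4:**
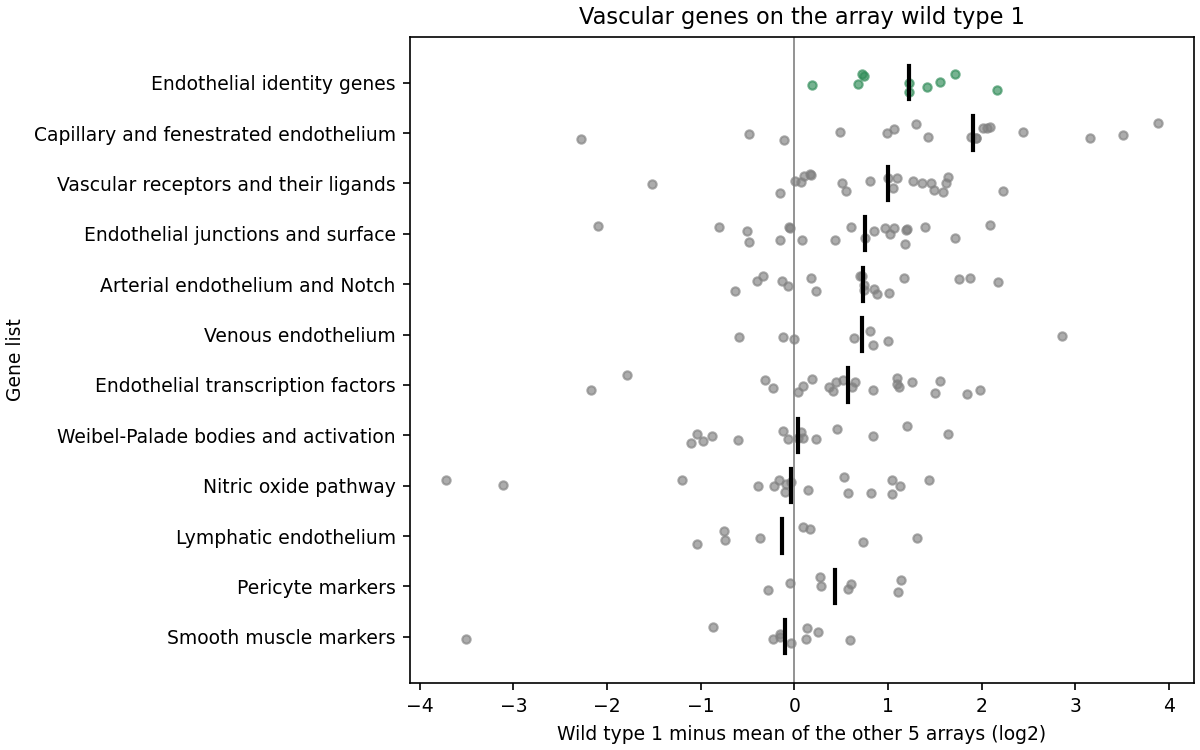
Wild type 1 minus the mean of the other 5 arrays on the log2 scale, 1 point per gene, for the identity genes (green) and for other vascular lists (grey), with a bar at each list's median. The identity genes lie between 0.19 and 2.16 with a median of 1.22, whereas smooth muscle markers have a median of -0.10 and lymphatic genes of -0.14.

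Smooth muscle, the main cell of the aortic wall, did not share this height. Smooth muscle markers averaged 10.23, 10.39 and 9.90 on knockout 1, 2 and 3, and 9.77, 9.92 and 10.31 on wild type 1, 2 and 3, and 2 of 10 were highest on wild type 1. The low mean of wild type 1 rests on Des, the desmin of smooth and striated muscle, with 7.86 there against 11.18 to 11.62 on the other 5. Without Des, left out after its values were seen, the other 9 averaged 10.12, 10.28 and 9.74 on knockout 1, 2 and 3, and 9.98, 9.78 and 10.17 on wild type 1, 2 and 3, so that wild type 1 lay within the range of the others. The signal of Acta2, the actin of smooth muscle, was 12.27 to 12.63 on knockout arrays and 12.39 to 12.62 on wild-type arrays. Pericyte markers, from the cells that wrap small vessels, were highest on wild type 1 for 6 of 8, with a median step of 0.43.

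Finally, 12028 other genes above the filter were ranked by how closely they followed the identity genes. Each profile over the 6 arrays was centred on its own mean, and likeness was the root mean square difference, in log2 units, from the mean centred profile of the 10 genes. The closest were Sh3bgrl and Ets1 with 0.05 each, Eng with 0.06, Pdgfrb and Bmp6 with 0.07 each, and H2bc21 with 0.08. Among the members, Pecam1 was closest to their mean with 0.06 and Robo4 next with 0.10, while Kdr with 0.42 and Plvap with 0.45 were farthest. Wild type 1, at 0.97 above the centre of the mean profile, and knockout 1, at 0.21, shape this ranking, since the remaining arrays lay between -0.32 and -0.26.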

How the data were processed

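The table deposited by the authors holds log2 values of 35399 probe sets, a column for each array, and the submitters' processing notes name MAS5 without version or role. The log base was read from the range, 1.55 to 13.96. How background, summary and scaling were handled is not stated in the labels, and values were used as deposited. Small differences of dim genes could depend on these steps. Groups and replicate numbers came from the sample titles. The platform annotation names 23410 probe sets, 21789 of them with 1 symbol. A two-group limma fit (version 3.58.1, under R 4.3.3) with an intensity trend compared knockout and wild type, and Benjamini-Hochberg adjustment ran over 14046 probe sets above the 40th percentile of mean signal. With 3 arrays per group precision is limited. The labels do not say whether samples of a group came from separate animals, so each p-value reflects only the spread between these samples, which may be technical. Genes other than the members were named by lowest p or largest difference in their list, and marker lists were given by their mean. Of 21 lists beside the members, 205 of 212 genes were on the array. The members, lists and rules were chosen with earlier results of these data known. Dim genes were fitted without the filter and have no adjusted p.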

Additional observations from a re-analysis of the deposited data

How the results depend on the processing

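The alternatives were quantile normalization, median centring, no filter, a 60th percentile filter, a pseudocount of 64, other forms of moderation, array weights, a per-gene t-test without moderation, a replicate block, gene means, all probe sets, and leaving out arrays. Leaving out wild type 1 with a further array, and knockout 3 against wild type 2 and 3, were chosen after seeing the data. In all of them 0 of 10 endothelial identity genes passed. The median difference of the 10 was -0.32 in the main test and ranged from -0.55 to 0.26 on leaving out arrays, with 0.26 without wild type 1 and knockout 2. With array weights, whose estimate stopped before full convergence, differences turned to 0.16 for Pecam1, 0.32 for Cdh5, 0.55 for Kdr, 0.15 for Tek, 0.18 for Vwf, 0.19 for Nos3, 0.17 for Sox17, 0.18 for Emcn and 0.12 for Robo4. The cause was not tested. Plvap kept its sign there, with 0.51. At an unadjusted limma p under 0.05 the count was 1 of 10, Plvap, with array weights (611 of 14046 probe sets) and without knockout 3 (236 of 14046). Without wild type 1 and knockout 3 it was 2 of 10, Kdr and Plvap (1114 of 14046). In the other settings with replicates in both groups it was 0 of 10. On leaving out 1 array, or wild type 1 with 1 more, the range was -0.54 to 0.22 for Pecam1, -0.73 to 0.39 for Cdh5, -0.77 to 0.68 for Kdr, -0.49 to 0.28 for Tek, -0.68 to 0.28 for Vwf, -0.25 to 0.21 for Nos3, -0.32 to 0.22 for Sox17, 0.16 to 0.76 for Plvap, -0.74 to 0.23 for Emcn and -0.63 to 0.092 for Robo4. Tek changed sign to 0.04 without knockout 2 on the other 5 arrays. For knockout 3 alone against wild type 2 and 3, a fit that gives the unreplicated array the spread of the other group, the values were 0.076 for Pecam1, 0.097 for Cdh5, 0.077 for Kdr, 0.067 for Tek, 0.0095 for Nos3, 0.24 for Emcn and -0.051 for Plvap, and 4 probe sets passed (Alox15, Saa3, Prg4 and Snord14e). Over all probe sets above the filter, deviations of same-numbered arrays from their group means had correlations of 0.09, -0.23 and 0.20. Wild type 1 weighs on its group mean, so these values cannot settle whether the arrays were paired. With the replicate block the SE was smaller for each of the 10 genes, such as 0.30 against 0.56 for Cdh5. The median difference of the 10 stayed at -0.32 there and 0 probe sets passed. The t-test also passed 0, with 184 at an unadjusted p under 0.05. The 11 planned settings on 6 arrays other than array weights left the signs and calls of the 10 genes as they were, with 3 of the 10 not tested under the 60th percentile filter. No value of background was used, so signal over background was not measured, and Sox17 lay near the filter on low signals.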
